A study of Mus musculus with 1111 samples.

Results

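Integrins outside the complement receptors are described here in mouse microglia grouped by their content of labelled plasma protein. The set was given as 7 listed genes, matched by gene symbol in the deposited count tables: Itgal, Itga4, Itga6, Itga9 and Itgav, which encode alpha subunits, and Itgb1 and Itgb5, which encode beta subunits. All 7 were among the 35583 genes of each table, each on a single row. The cells were brain microglia of mice aged 3 months, taken 20 hours after injection of plasma proteins carrying the fluorescent dye NHS-Atto647N. By the plasma signal inside each cell, the labels form 3 groups, plasma none, plasma low and plasma high (none, low and high for short), and all mice had been injected. The labels give no strain, genotype or sex, and no mice without an injection are among the samples. Each library was 1 cell, prepared by Smart-seq2, which covers whole transcripts and uses no molecular identifiers, so reads are counted.

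Integrins are cell surface receptors made of 1 alpha and 1 beta subunit, which join the outside matrix or another cell to the actin skeleton. The beta subunit of Itgb1 pairs with many alpha subunits, including those of Itga4, Itga6, Itga9 and Itgav, whereas that of Itgb5 pairs with Itgav alone. The Itgav and Itgb5 receptor binds vitronectin and takes part in the uptake of dying cells and debris, and Itgav receptors can also release active TGF-beta, a factor on which microglia depend. Itgal pairs with Itgb2, the beta subunit of the complement receptors Itgam and Itgax, to form the leukocyte receptor for the ICAM proteins. Itga4 is the receptor subunit by which many blood leukocytes bind VCAM1, Itga6 forms laminin receptors, and Itga9 forms receptors for tenascin and related proteins.

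The labels named 1111 cells, of which 1045 were matched to a column of counts, and 987 passed a minimum of 50000 reads in genes and 500 genes with a read. By group, 35.1% of these were none, 35.6% low and 29.4% high, with median depths of 207429, 229931 and 267143 reads per cell. Each label also carries a TH number from 1 to 3, whose meaning is not stated. Reads were summed by group within each TH number, which gave 9 sums of 21309816 to 49323522 reads. Animals are not named in the labels, each group was therefore 1 sample, and no test between groups was possible, so no p-value is given. Errors are the SD over the 3 TH numbers (n = 3), which may be technical. In each TH number, plasma none lay in plate columns 1 to 8, plasma low in 9 to 16 and plasma high in 17 to 23 (to 24 in TH 3), so plasma group and plate column cannot be told apart. Every passing cell carried a read of a microglial marker, and the 7 markers used (such as P2ry12 and Tmem119) summed to 32709 ± 1345, 32132 ± 2854 and 31160 ± 2144 CPM in none, low and high, where CPM is the reads of a gene per 1e+06 reads in genes. All 7 neutrophil markers were at 0 in every group. Only 2 cells, 1 in none and 1 in high, carried at least 3 markers of another cell type, each at 10 CPM or more.

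The 5 integrins with reads in many cells held a wide range of levels. By CPM per kb of exon, which allows genes of different length to be compared, Itgb5 stood at 372.05 ± 13.7 over the 3 groups, Itgb1 at 56.7 ± 14.9, Itga6 at 37.3 ± 10.1, Itgav at 10.9 ± 2.67 and Itga9 at 3.55 ± 1.32. Itga4 followed at 0.265 ± 0.0635 and Itgal was at 0. Each of the first 5 genes was above the next in 9 of 9 sums, except that Itgb1 was above Itga6 in 8 of 9. Itgb1 and Itga6 also changed places when the longest protein-coding transcript was used as the length (60.6 ± 15.9 against 78.1 ± 21.2 CPM per kb), so their order is not settled. The other places were the same with that length.

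Itgb5 and Itgav, the partners of a single receptor, were the members whose levels in plasma high lay above those in plasma none in all 3 TH numbers, and the bases in front of both genes are shown for that reason. Of the 7 genes, 5 had an entry among the RefSeq promoters of build GRCm38.p6, matched by symbol, and the entry for Itga9 lay 105.002 kb from the start of the gene in the count tables and was not used. The sequences are the 250 bases before the start of transcription, on the plus strand, at chr16:33829415-33829664 for Itgb5 and chr2:83724147-83724396 for Itgav. Capitals mark GAGGAA, the core of the site read by the myeloid factor PU.1, and GGGCGG, the GC box read by the Sp1 family, on either strand (TTCCTC and CCGCCC). No base fell in both motifs.
Itgb5: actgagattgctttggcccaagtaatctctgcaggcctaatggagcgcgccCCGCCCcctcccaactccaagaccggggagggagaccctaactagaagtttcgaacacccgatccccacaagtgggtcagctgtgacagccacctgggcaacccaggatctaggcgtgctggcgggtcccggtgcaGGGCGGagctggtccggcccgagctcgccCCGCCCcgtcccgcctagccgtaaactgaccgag
Itgav: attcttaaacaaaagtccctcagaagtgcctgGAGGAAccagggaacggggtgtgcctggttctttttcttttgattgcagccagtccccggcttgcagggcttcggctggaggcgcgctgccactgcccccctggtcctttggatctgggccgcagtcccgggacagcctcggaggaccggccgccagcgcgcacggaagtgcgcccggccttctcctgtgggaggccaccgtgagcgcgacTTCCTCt
The window of Itgb5 held GGGCGG 3 times and GAGGAA 0 times, and that of Itgav held GAGGAA 2 times and GGGCGG 0 times. Itgb1 held each motif 1 time, and Itga4 held GGGCGG 1 time. Across all 32851 promoters of that length, 23.3% held GAGGAA and 32.7% held GGGCGG. Itgb5 and Itgav each had 18 CG dinucleotides in the window and Itgb1 had 21, against 6 for Itga4 and a median of 6 over all promoters. These are matches of letters and not measured binding.

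Itgb5 (ENSMUSG00000022817) lies at chr16:33829665-33949338 of mm10 on the plus strand, and no other annotated gene overlaps it. For TH 1, TH 2 and TH 3 its level was 1261, 995 and 1296 CPM in the none group, 1088, 1326 and 1174 CPM in the low group, and 1699, 1477 and 1581 CPM in the high group. All 3 sums of plasma high were above all 6 of the other groups, while plasma none and plasma low overlapped. The group means were 1184 ± 164.6 CPM for none, 1196 ± 120.4 for low and 1586 ± 111.2 for high. On the scale of log2(CPM + 1), which is used for all ratios below, plasma high was 0.43 ± 0.14 above plasma none (1.35-fold), with 0.43, 0.57 and 0.29 in the 3 TH numbers. Over 15 alternative treatments of the data the difference stayed between 0.32 and 0.50. Plasma high was 0.41 ± 0.24 above plasma low, in 3 of 3 TH numbers. Plasma low against plasma none gave 0.02 ± 0.34, with 0.41 in TH 2 and negative values in the other two, so these groups did not differ beyond the spread.

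Sums of 2 groups failed to overlap for 13.9% of the 5534 genes tested in plasma high against plasma none, where tested means a mean of at least 20 CPM and detection in at least 10% of cells of a group. For the other comparisons the share was 9.67% in plasma high against plasma low and 9.55% in plasma low against plasma none. Itgb5 and Itgav did not overlap in the first, Itgb5 alone in the second, and 0 of the 5 tested integrins in the third. The signed ratio of Itgb5 in plasma high against plasma none was above that of 78.9% of tested genes. Genes lower in plasma high count as below it, so this is no rank by size. Many genes differed by more.

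**Figure D1:**
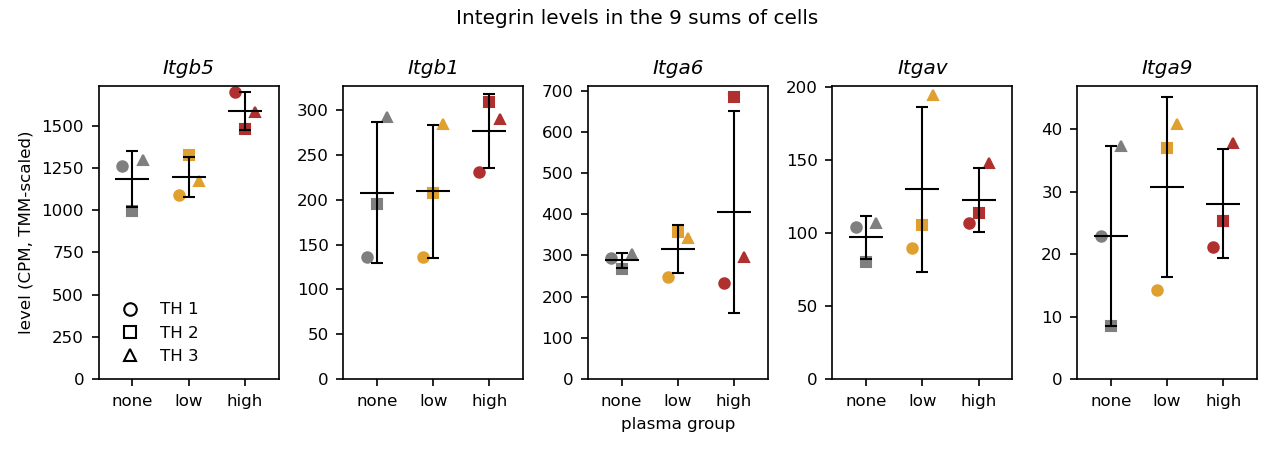
Level of 5 integrins in each of the 9 sums of cells, in CPM scaled with TMM factors (vertical axis, a separate scale for each gene, starting at 0), by plasma group; symbols are the TH numbers, and the bar with whiskers is the mean ± SD over 3. Itgb5 in plasma high sits between 1477 and 1699 CPM, above its other 6 values, and Itga6 in plasma high holds 1 value of 685 CPM far above the others.

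Most cells held Itgb5 reads. A read was found in 89.02% of none cells (95% Clopper-Pearson interval 85.2 to 92.1, which covers counting error only), 91.2% of low cells (87.7 to 93.9) and 94.8% of high cells (91.6 to 97.1). With each cell thinned to 50000 reads, to remove the difference in depth, the shares were 88.2%, 89.7% and 94.8%. The thinned share in plasma high exceeded that in plasma none by 9.83, 8.32 and 2.12 percentage points in the 3 TH numbers. At equal depth the cells of both plasma high and plasma low held more kinds of transcript than those of plasma none, with medians of 1877, 1655 and 1704 genes in the 3 TH numbers of plasma high, 2009, 1624 and 1818 in plasma low and 1598, 1455 and 1552 in plasma none, and its part in the shares was not tested. The median tested gene gained 2.56 points in plasma high and 3.04 points in plasma low over plasma none, and 35.1% and 39.1% of tested genes gained in 3 of 3 TH numbers. The median level in cells with a read was 1221 CPM for none, 1053 CPM for low and 1383 CPM for high, with interquartile ranges of 632 to 1917, 643 to 1799 and 850 to 2116 CPM.

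After thinning, 92 of 987 cells had no read of Itgb5. In these cells a median of 1408 genes had a read and the 7 microglial markers summed to a median of 28740 CPM, against 1683 genes and 32180 CPM in cells with a read. In plasma high the cells without a read were only 15, with a median of 1043 genes and 22460 CPM of the markers. The marker medians without and with a read were 30220 and 33280 CPM in plasma none, and 32330 and 32220 CPM in plasma low. Fewer genes per cell thus went with a missing Itgb5 read, and its part in the result was not tested. Across the cells of each group and TH number, Itgb5 followed Csf1r weakly and none of the other microglial markers. The median Spearman's rho of thinned reads over the 9 sets was highest for Csf1r, the receptor on which microglia depend for survival, at 0.21 (range 0.02 to 0.28). Medians of the other markers lay between -0.06 for Siglech and 0.05 for P2ry12, and each of their ranges crossed 0. The median rho for Itgav was -0.01. All these pairs of values share a cell and its depth.

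Itgav (ENSMUSG00000027087) lies at chr2:83724397-83806916 on the plus strand and overlaps the antisense gene Gm13684, which held 4.71 CPM. The use of strand in the counting is not given, so reads of the overlap cannot be assigned. For TH 1, TH 2 and TH 3, its sums were 104.6, 80.3 and 106.9 CPM in the none group, 90, 105.3 and 194.8 CPM in the low group, and 107.2, 113.5 and 147.8 CPM in the high group. TH 3 held the highest Itgav value of each group, and that of plasma low stood far above the rest. Plasma high against plasma none was 0.33 ± 0.26, with 0.04, 0.49 and 0.46 in the TH numbers, so the sign was shared but the TH 1 sums were almost equal. The sums of these 2 groups only just failed to overlap (106.9 against 107.2 CPM). Plasma low against plasma none was 0.34 ± 0.54 and fell to 0.09 without TH 3, and plasma high against plasma low was -0.01 ± 0.34. Neither held the same sign in all TH numbers.

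Itgav reads were present in 35.8% of none cells, 41.3% of low cells and 43.8% of high cells, and after thinning in 29.5%, 36.5% and 38.6%. The thinned share in plasma low was above that in plasma none by 7.04 ± 0.712 percentage points, in 3 of 3 TH numbers. Of tested genes 39.1% were also higher in 3 of 3, and 84.6% had a lower signed difference than Itgav. In plasma high the excess was 8.92 ± 8.80 points, also in 3 of 3, but 18.7 of them came in TH 1 against 6.31 and 1.71 in TH 2 and TH 3. The summed Itgav level had its smallest difference in TH 1, where the difference in share was largest. Per kb of exon, the level of Itgb5 was 36.9 ± 0.542 times that of Itgav for none, 30.9 ± 11.03 times for low and 39.9 ± 7.81 times for high. The only known alpha partner of Itgb5 was thus far below it in transcript level in all 3 groups, with no difference between groups beyond the spread. Cells with an Itgav read held an Itgb5 read in 92.1% of cases and cells without one in 89.9%, at 50000 reads per cell.

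Itgb1 (ENSMUSG00000025809) lies at chr8:128685654-128733200 on the plus strand, with no overlapping gene. For TH 1, TH 2 and TH 3 its level was 136.6, 195.4 and 291.85 CPM in the none group, 136.04, 207.5 and 284.6 CPM in the low group, and 230.3, 309.02 and 289.5 CPM in the high group. Plasma none and plasma low matched each other closely within each TH number and both differed more between TH numbers than from each other. In plasma high the TH 1 and TH 2 values were above both, and the TH 3 value was level with them. Plasma high was therefore 0.47 ± 0.42 above plasma none (0.75, 0.66 and -0.01), which became 0.70 without TH 3 and 0.32 without TH 1. It was 0.45 ± 0.38 above plasma low (0.75, 0.57 and 0.02), the same sign in 3 of 3. Plasma low against plasma none was 0.01 ± 0.06, the smallest spread of any tested integrin in any comparison.

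In all TH numbers more of the high cells than of the none cells held an Itgb1 read. The share was 46.5% (41.2 to 51.9) for none, 50.7% (45.4 to 56.1) for low and 56.2% (50.3 to 62) for high, and 41.3%, 47.3% and 54.1% after thinning. The thinned share of high exceeded that of none by 15.3, 9.92 and 13.4 percentage points, a mean of 12.9 ± 2.72. The corresponding difference without thinning was 9.75 ± 0.450 points. The median tested gene gained 2.56 points, and 97.2% of tested genes had a lower signed difference than Itgb1. Of tested genes 35.1% were higher in 3 of 3 TH numbers. Plasma low minus plasma none was 5.90 ± 14.3 points for Itgb1, made up of 22.3 in TH 1 and slightly negative values elsewhere.

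Itga6 (ENSMUSG00000027111) lies at chr2:71745616-71858416 on the plus strand and overlaps 3 predicted genes, Gm13663, Gm17250 and Gm13662, all at 0 CPM. Its level was 294.9, 268.2 and 302.9 CPM in the none group, 248.1, 358.03 and 341.5 CPM in the low group, and 233.45, 685 and 295.8 CPM in the high group. The TH 2 sum of plasma high was above all 8 others, and the other 2 of plasma high lay among or below those of plasma none. In that sum 35.6% of the Itga6 reads came from 1 cell of 1733849 reads, which held 6100 CPM of Itga6, and without it the level was 459 CPM. Single cells weighed on other sums as well. In TH 1 of plasma high 1 cell gave 31.99% of the Itga6 reads, and without it the level was 163.6 CPM. In TH 3 the top cell gave 22.97% in plasma none and 21.5% in plasma low. Plasma high against plasma none gave 0.33 ± 0.90 and changed sign to -0.18 without TH 2. Plasma low against plasma none was 0.11 ± 0.34 (-0.04 without TH 2), and plasma high against plasma low was 0.21 ± 0.63 (-0.15 without TH 2). None of these exceeded its spread.

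Cells with an Itga6 read made up 52.3% of none, 60.4% of low and 52.4% of high, and 46.8%, 55.8% and 47.6% after thinning. The thinned share in plasma low was above plasma none by 11.05, 12.2 and 3.87 percentage points and above plasma high by 7.84, 14.9 and 2.05 points. Over all tested genes, 39.1% were higher in plasma low than in plasma none in 3 of 3 TH numbers, with a median gain of 3.04 points, and 16.03% were lower in plasma high than in plasma low in 3 of 3. Plasma low cells also held the most genes at equal depth in TH 1 and TH 3. The summed level of Itga6 had its highest mean in plasma high instead, so share and level did not give the same order and none is read from them. In cells with a read, the median Itga6 level was 399, 321.6 and 395 CPM for none, low and high. The interquartile range of such cells in plasma none was 51.7 to 790 CPM, relatively far wider than that of Itgb5.

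Itga9 (ENSMUSG00000039115) lies at chr9:118606690-118901003 on the plus strand and overlaps the antisense gene Gm2415 at 1.16 CPM. It was the lowest integrin that could be compared, at 22.9, 8.45 and 37.4 CPM in the none group, 14.3, 37.1 and 40.9 CPM in the low group, and 21.1, 25.3 and 37.9 CPM in the high group. The groups overlapped throughout. Plasma high against plasma none was 0.46 ± 0.88, which became -0.05 without TH 2, and plasma low against plasma none was 0.50 ± 1.36, which became -0.26 without TH 2 and 1.07 without TH 1. Plasma high against plasma low was -0.04 ± 0.53 (0.21 without TH 2). Few cells carried these levels: 10.7%, 14.5% and 12.8% of cells had an Itga9 read (8.38%, 12.5% and 10.7% after thinning), and 16.2% of the Itga9 reads of plasma high came from the 1 cell there with at least 3 markers of another cell type. Without such cells, plasma high against plasma none fell to 0.05.

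Itga4 (ENSMUSG00000027009) lies at chr2:79255426-79333123 on the plus strand and overlaps the antisense gene Cerkl at 0.646 CPM. Only 4 of the 987 cells held an Itga4 read, 1 of none, 1 of low and 2 of high. The shares were 0.289% (0.00732 to 1.60), 0.285% (0.00721 to 1.58) and 0.690% (0.0836 to 2.47), and no fold between groups is given on so few cells. Within the cells Itga4 was abundant, at 899.9 CPM in the none cell, 735 and 584 CPM in the high cells and 126.9 CPM in the low cell, which held only 15 reads of it. All 4 cells held reads of 6 or 7 of the 7 microglial markers, summing to 16425 CPM in the none cell, 33478 in the low cell and 28326 and 24299 in the high cells. None reached 10 CPM in a monocyte, T cell, B cell or neutrophil marker. The platelet gene Gp9 reached it in the cells of plasma none and plasma low, and the oligodendrocyte gene Mobp in 1 cell of plasma high.

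Itgal (ENSMUSG00000030830) lies at chr7:127296260-127335138 on the plus strand, with no overlapping gene. It had 0 reads in all 987 cells. Taken as 3 cells of each group, a count of 0 allows a share of up to 0.867% of none cells with a read, 0.855% of low cells and 1.03% of high cells. The upper Clopper-Pearson limits are 1.06%, 1.05% and 1.26%, and all these limits cover counting error only. Its partner Itgb2 was found in 64.2%, 72.4% and 74.8% of the same cells. The Itgal and Itgb2 receptor therefore lacked a detectable alpha transcript, while the beta transcript was present in most cells.

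**Figure D2:**
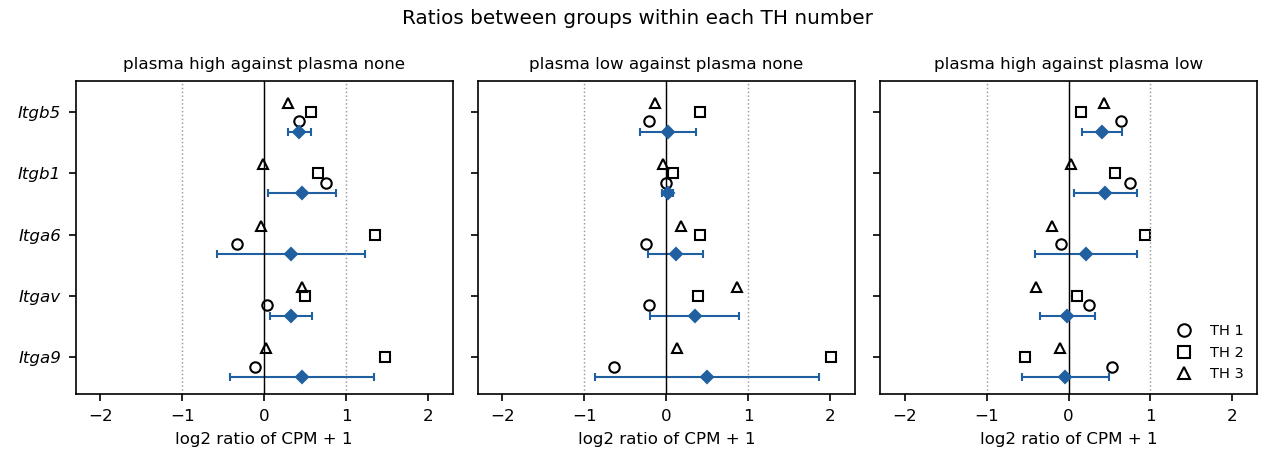
Log2 ratio of CPM + 1 between plasma groups (horizontal axis) for 5 integrins, in 3 comparisons; open symbols are the TH numbers, blue diamonds with whiskers their mean ± SD, and dotted lines mark a 2-fold difference. All 3 symbols of Itgb5 lie right of 0 in both comparisons with plasma high, while in plasma high against plasma none the TH 2 symbols of Itga6 and Itga9 lie far right of their other two.

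Across the set, 5 of 5 tested integrins had a positive mean ratio in plasma high against plasma none, with a median of 0.43, where 54.8% of all tested genes were positive and their median was 0.05. In plasma low against plasma none 5 of 5 were positive (median 0.11, against 54.9% and 0.05), and in plasma high against plasma low 3 of 5 (median 0.21, against 50.6% and 0.01). These comparisons share groups and are not independent of each other. A size rule asked for a mean difference of at least 2-fold with the same sign in 3 of 3 TH numbers. By this rule 0 of 5 integrins were called in plasma high against plasma none, where 5.15% of all tested genes were, and 0 of 5 in plasma low against plasma none (2.64% of all) and in plasma high against plasma low (3.28%). At 1.5-fold the count was again 0 of 5 in each, against 16.3%, 10.2% and 11.1% of all tested genes.

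The sign alone was shared by all TH numbers for 2 of 5 integrins in plasma high against plasma none (Itgb5 and Itgav), where 32.5% of tested genes shared it. In plasma low against plasma none it was shared for 0 of 5, against 28.5% of tested genes, and in plasma high against plasma low for 2 of 5 (Itgb5 and Itgb1), against 27.2%. With 5 genes these counts lie near the background. The complement receptor subunits Itgam and Itgb2 moved by similar amounts, 0.41 ± 0.14 and 0.39 ± 0.14 in plasma high against plasma none, each with the same sign in 3 of 3 TH numbers. Their levels for none, low and high were 438 ± 42.2, 476 ± 133.6 and 578 ± 23.8 CPM for Itgam, and 485 ± 40.7, 578 ± 33.1 and 635 ± 11.8 CPM for Itgb2.

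**Figure D3:**
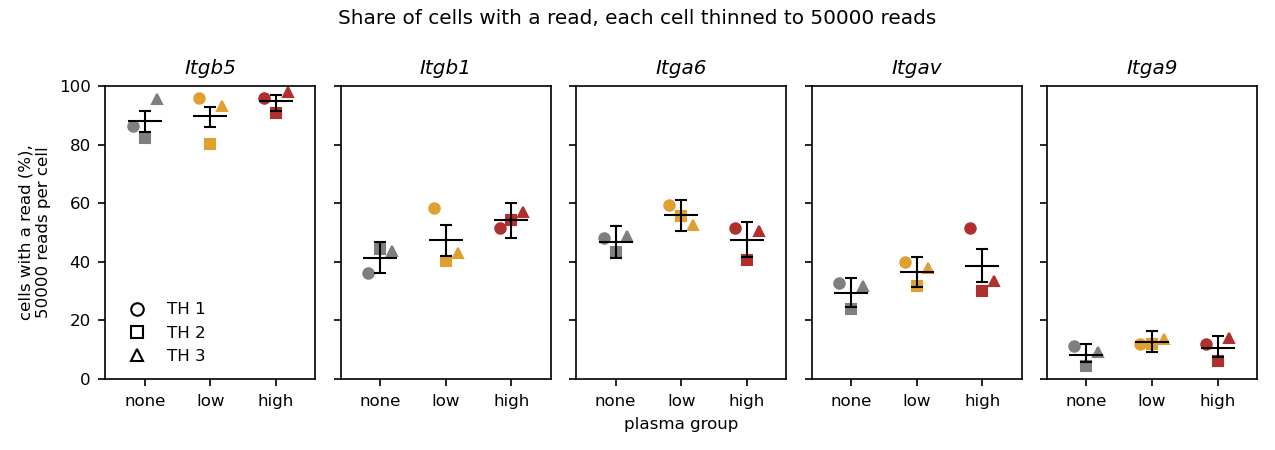
Share of cells with at least 1 read of each integrin (vertical axis, percent) after every cell was thinned to 50000 reads, by plasma group; symbols are the TH numbers, and the bar with whiskers is the share over all cells of the group with its 95% Clopper-Pearson interval. Itgb1 is at 41.3% in plasma none and 54.1% in plasma high, while Itga6 is highest in plasma low at 55.8%.

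Beta subunits were found about as often in cells with a read of an alpha partner as in cells without. At 50000 reads per cell the mean number of the 7 integrins with a read was 2.14 for none, 2.42 for low and 2.47 for high, and it ranged from 1.98 to 2.66 over the 9 sets of cells. Over all cells 36.5% held reads of 2 of them, 31.3% of 3 and 2.63% of none. Itgb1 reads were found in 47.98% of cells with an Itga6 read and in 46.4% of cells without. The corresponding Itgb1 shares were 50.96% and 46.8% for Itga9, and 49.7% and 45.9% for Itgav. For each of these partners the difference had opposite signs in different TH numbers. Of the 4 cells with Itga4, 1 held an Itgb1 read at that depth and 2 did without thinning.

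The integrin transcripts of these cells came from few genes. Of the summed level per kb of 8 beta subunits, Itgb5 made up 60.8 ± 2.89% for none, 57.9 ± 1.88% for low and 60.9 ± 2.49% for high. Itgb2 followed with 29.3%, 32.7% and 28.5%, and Itgb1 with 9.32%, 8.79% and 9.28%. Itgb6 and Itgb8, other beta partners of Itgav, had no read in any group. Of 18 alpha subunits, Itgam took 62.7%, 60.5% and 64.2% in the same order of groups, Itga6 23.1%, 22.8% and 23.7%, and Itgav 6.56%, 7.68% and 6.42%. Itga5, which is outside the set, took 3.55%, 4.01% and 2.20%, and Itga9 2.14%, 2.46% and 2.05%. The group means of each of these shares differed by less than 5 percentage points. Single TH numbers spread further. In TH 1, TH 2 and TH 3 of plasma high, Itga6 took 15.9%, 35.7% and 19.4%, and Itgam 70.5%, 56.5% and 65.7%. Per kb of exon, the level of the alpha subunits Itga4, Itga6, Itga9 and Itgav together was 0.951 ± 0.373 times that of Itgb1 for none, 1.03 ± 0.132 for low and 0.873 ± 0.280 for high. With the longest protein-coding transcript as the length, Itga6 alone was above Itgb1 over the 3 groups (78.1 against 60.6 CPM per kb). This ratio and the Itga6 share therefore depend on the length used.

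**Figure D4:**
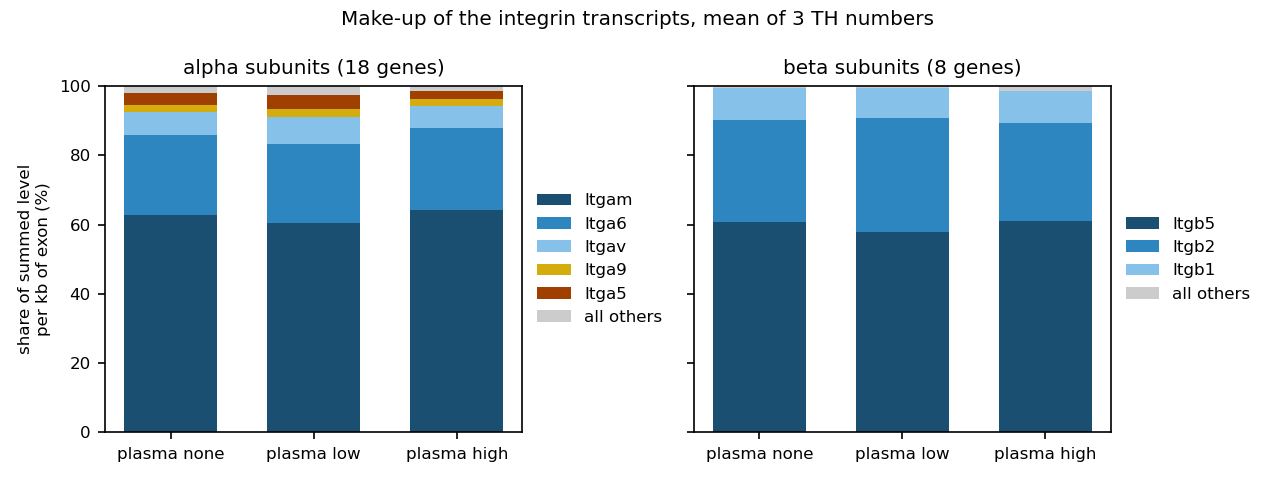
Share of each gene in the summed level per kb of exon (vertical axis, percent) of 18 alpha subunits (left) and 8 beta subunits (right), by plasma group, as the mean over 3 TH numbers. Itgb5 takes 57.9% to 60.9% of the beta subunits and Itgam 60.5% to 64.2% of the alpha subunits in the 3 groups.

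Genes that act with the integrins were read from lists. Of the integrins outside both sets, Itgb3, another beta partner of Itgav, was the only one tested, with 17.7 ± 3.50 CPM in plasma none and 50.5 ± 40.9 CPM in plasma high and a ratio of 1.02 ± 1.82 that was negative in TH 3. Genes of integrin activation turn the receptors to their binding state. Among 8 tested, 2 had a positive ratio in plasma high against plasma none, where 54.8% of all tested genes had one. At 1.5-fold 0 of them were called, against 16.3% of all tested genes. Rap1b, a small GTPase upstream of talin and the most abundant of them, stood at 753 ± 136.5 CPM in plasma none and 777 ± 53.01 CPM in plasma high. Of 4 tested ligand genes 0 were called at 1.5-fold, again beside 16.3% of all tested genes. The most abundant was F11r, a junctional protein that binds the Itgal receptor, with a ratio of -0.17 ± 0.12. Transcripts of fibronectin (Fn1), vitronectin (Vtn) and osteopontin (Spp1), ligands of Itgav receptors, were at 0 in every sum.

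Adhesion signalling, the list of adaptors and kinases below the receptors, had 15 tested genes. At 1.5-fold 2 were higher and 2 lower in plasma high against plasma none, where 16.3% of all tested genes were called. Crkl, an adaptor, was higher by 1.59 ± 1.27 and Parvg, a leukocyte partner of integrin-linked kinase, by 0.83 ± 1.01. Actn4, an actin crosslinker, was lower (-1.24 ± 1.07), as was Tns1, a tensin that binds beta tails (-0.89 ± 0.32). Crkl and Actn4 were also called at 2-fold (5.15% of all tested genes). Lyn, a Src family kinase and the most abundant gene of the list, had 726 ± 121.1 CPM in plasma none and 824 ± 113.9 CPM in plasma high, without a shared sign.

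Among 7 tested genes that recycle beta integrins, Snx27 (0.59 ± 0.32) and Numb (0.59 ± 0.34) were higher and Rab21 lower (-0.74 ± 0.29) at 1.5-fold in plasma high against plasma none, again beside 16.3% of all tested genes. Snx27 is a sorting nexin, Numb an endocytic adaptor and Rab21 a small GTPase that binds alpha tails. Snx17, which returns Itgb1 and Itgb5 proteins from endosomes and was the most abundant of the list, had a ratio of -0.29 ± 0.41. Of 4 tested genes of latent TGF-beta handling 0 were called. Tgfbr1, the most abundant, had a ratio of 0.24 ± 0.47. Of 9 tested membrane partners of integrins 0 were called, and Cd81, a tetraspanin and the most abundant, was at 0.35 ± 0.08 with the same sign in 3 of 3.

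Genes most like each integrin were named by Pearson's r of log2(CPM + 1), centred within each TH number, over the 9 sums and 1763 genes of at least 100 CPM. The most alike were Sh3bgrl3 (0.95) and Trf (0.94) for Itgb5, Hps3 (0.98) and Mpeg1 (0.97) for Itgb1, Vps29 (0.97) and Dmtf1 (0.95) for Itga6, Brk1 and Arl4c (both 0.94) for Itgav, and Cflar (0.95) and Tmx3 (0.94) for Itga9. The tenth gene in each ranking still reached 0.85 to 0.94, so with 9 points that share their libraries these ranks separate neighbours poorly.

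Some markers of other cells and the mitochondrial share of reads moved with the groups as well. The platelet list held 35.4 ± 8.78 CPM for none, 40.6 ± 5.39 for low and 53.5 ± 2.88 for high, nearly all of it Gp9, with Itga2b and Tubb1 of its 5 markers at 0 in every group. The oligodendrocyte list held 49.6 ± 25.1, 49.7 ± 18.3 and 74.1 ± 15.4 CPM, with Mog of its 5 markers at 0. The neuron list held 0.226 ± 0.365, 1.63 ± 2.82 and 19.8 ± 33.1 CPM, with sums of plasma high from 0.149 to 58.1 CPM. At 50000 reads per cell the median share of mitochondrial reads was 0.606%, 0.800% and 0.973%, and it was higher in plasma high than in the none group in 3 of 3 TH numbers. All 4 measures had their highest mean or median in plasma high, as Itgb5 had, and their part in that result was not tested. They were picked for this, and not every list did so. For none, low and high, astrocyte markers held 3.09, 2.98 and 1.65 CPM and endothelial markers 14.1, 18.6 and 17.9 CPM. Markers of border-associated macrophages held 0.664, 9.89 and 2.29 CPM. Without the cells carrying at least 3 markers of another type, Itgb5 in plasma high against plasma none was 0.44.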

How the data were processed

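Counts of reads per gene and cell were used as the authors deposited them, in 1 table for each TH number. In 1 column of TH 3, 2 deposited values were not whole (tolerance 0.001), so the unit of that column was taken to be expected counts, which were rounded. The submitters' processing notes name bcl2fastq, Trim Galore, STAR 2.5.3a, Seurat and mm10. What counted the reads, and whether strand was used, is not given in the sources used here. Per the file headers, TH 2 and TH 3 columns come from top-hit alignments, which TH 1 headers do not state. Labelled cells without a column (66) were not analysed here. Cells were sorted singly, so no doublet caller was run. Sums were scaled by the TMM method (edgeR 4.0.16, R 4.3.3), and ratios used a pseudocount of 1 CPM. Lengths came from GENCODE M21 exons and promoter sequences from RefSeq. The size rule was run on simulated data with larger changes and a higher minimum level than those used here, which does not show how it performs on these sums. All 7 members are named. From each gene list the text names its most abundant gene and up to 5 genes past 1.5-fold in plasma high against plasma none; other named genes were chosen after their values were seen. For likeness, genes with predicted or clone names were left out. Members and lists were chosen with earlier results of these data known. A listed microglial marker is not reported here and was left out of the marker sums. Alternatives covered scaling, pseudocount, filters, depth, plate edges, single cells, other cell types and each TH number left out. Smart-seq2 reads are not independent molecules, so intervals cover counting error only.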

Additional observations from a re-analysis of the deposited data

How the results depend on the processing

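The 7 integrins' ratios in 3 comparisons were recomputed under 15 alternatives each, and all but 1 of these values moved by no more than the SD over TH numbers. The exception was Itgb1 in plasma low against plasma none without the top cell of each sum (-0.06). Leaving out 1 of the 3 TH numbers cannot move a mean by more than that SD, and Itgal stayed at 0 in every setting. The count is therefore no measure of stability. Without TH 2, Itga6 and Itga9 in plasma high against plasma none changed sign, to -0.18 and -0.05. Ratios of Itgb5 and Itgb1 with plasma high, and of Itgav in plasma high against plasma none, were positive under all 15. Without pairing by TH number (no replicate block), Itgb5 in plasma high against plasma none was 0.42, and 0 integrins met either size rule.

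Over all genes, the 2-fold rule called 5.15% of those tested in plasma high against plasma none, 2.64% in plasma low against plasma none and 3.28% in plasma high against plasma low. With cells thinned to 50000 reads these became 3.65%, 2.14% and 2.27%. A minimum of 50 CPM left 3.32%, 1.41% and 1.66%. No filter on low values gave 4.03%, 3.14% and 3.30% of many more genes, which were 1434, 1118 and 1173 genes called. Leaving out 1 TH number, where the sign has to be shared by fewer sums, gave 8.23% to 10.9%, 5.52% to 6.79% and 6.85% to 7.70%. Of the integrins, 0 to 1, 0 to 2 and 0 to 1 then met the 1.5-fold rule: Itgb1 without TH 3 in both comparisons with plasma high (0.70 against plasma none and 0.66 against plasma low), and without TH 1 Itga9 in plasma high against plasma none (0.75) and Itga9 and Itgav in plasma low against plasma none (1.07 and 0.62). Itga9 alone met the 2-fold rule there (0 to 1). The Itgb1 share of cells, plasma high minus plasma none, was 9.75 percentage points unthinned. With the longest coding transcript as the length, a choice made after seeing the data, Itga6 ranked 2 and Itgb1 ranked 3. Leaving the top Itga6 cell out of plasma high in TH 2 was also chosen after seeing the data. The causes were not tested. Other scalings moved the median of all tested genes by at most 0.04. Itga4 was found in 4 cells and Itgal in 0, both at full depth and at 50000 reads per cell, and no difference between groups could be seen on so few.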
